A study of Mus musculus with 6 samples.

Results

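Levels of 10 genes for RNA-binding proteins that steer alternative splicing in neurons were examined in sorted mouse islet β cells from control mice and from mice labelled βDKO, whose genotype targets the Swi/Snf ATPases Brg1 (Smarca4) and Brm (Smarca2). The genes were taken by name from a table of 24421 gene rows and belong to 4 families. They are the neuronal Hu genes Elavl2, Elavl3 and Elavl4, the genes Nova1 and Nova2, the genes Rbfox1, Rbfox2 and Rbfox3, and the polypyrimidine tract-binding genes Ptbp1 and Ptbp2. The 3 control libraries came from tamoxifen-treated mice with MIP-CreERT, Brg1f/+, Brm+/- and the reporter R26LSL-tdTomato/+. The 3 βDKO libraries came from tamoxifen-treated mice with MIP-CreERT, Brg1f/f, Brm-/- and the same reporter. All mice were 7 weeks old, on a mixed C57BL/6J and 129SV background, and dispersed islet cells were stained with DAPI and sorted by fluorescence. The controls therefore carried the Cre driver and tamoxifen too, and lacked 1 functional Brm copy and, after recombination, 1 Brg1 copy. Cre was driven by the mouse insulin promoter, so deletion of Brg1 rests on cells in which that promoter was active, whereas Brm was missing from the whole animal. Whether a library held 1 animal or a pool is not given in the sources used here, so p-values measure the spread between these libraries, which may be partly technical.

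Proteins of these families bind short sequence elements in pre-mRNA and decide whether nearby exons are kept. Neuronal Hu proteins bind U-rich and AU-rich elements and also steady mRNAs, Nova proteins bind clusters of YCAY, and Rbfox proteins bind UGCAUG. Ptbp1 binds pyrimidine tracts and silences neuronal exons in most tissues, including an exon of Ptbp2 whose loss sends the Ptbp2 mRNA to decay. During neuronal differentiation Ptbp1 falls and Ptbp2 takes its place. Islet β cells share part of this programme with neurons. In mouse β cells Elavl4 (HuD) is known to bind insulin mRNA and restrain its translation, Nova1 is known from rat and human β cells as a splicing regulator that supports survival, and Ptbp1 is known from rat β cells to stabilise mRNAs of insulin granule proteins after glucose.

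Values were deposited in TPM, an abundance per unit of gene length in which every library adds up to a fixed sum. Recovered depth ran from 25388872 reads in control 2 to 31282056 in control 1. Ins1 and Ins2 together took 42.6% to 48.3% of all TPM in the controls and 6.37% to 8.93% in the βDKO libraries, which leaves more of the fixed total to every other gene. Each comparison is therefore given on the deposited TPM and again after dividing each library by a median-of-ratios size factor, called rescaling here, which sets the typical gene to no change. On log2(TPM + 1), the median change of all 10404 tested genes was 0.83, and after rescaling it was 0.03. The words rose and fell are kept for genes that passed one way on the TPM and on the rescaled values alike. Smarca4 read 9, 13.5 and 12.4 TPM across the controls, listed by replicate number here and in all that follows, and 10.6, 10.5 and 11.4 TPM across the βDKO libraries. Smarca2 was at 14.1, 27.5 and 26.6 TPM against 25, 23.2 and 22.4 TPM. Both were lower only after rescaling (limma, log2 change −0.86 with adjusted p = 0.000562 and −0.71 with adjusted p = 0.0101), and a gene-level value does not show whether the targeted exons are present, so loss of either protein rests on the labels. Control 1 stood apart from the other controls in insulin share (48.3%) and in acinar cell markers (334 TPM in sum, against 39.5 and 10.3 TPM), and on TPM it was the lowest control library for Elavl4, Nova1, Nova2, Rbfox2, Ptbp1 and Ptbp2.

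All 10 genes lie on autosomes, from the 10.3 kb span of Ptbp1 (mm10 chr10:79854427-79864771, plus strand) to the 1526.2 kb span of Rbfox1 (mm10 chr16:5885355-7411526, plus strand), by the GENCODE annotation. Elavl4 occupies chr4:110203722-110351909 on the minus strand, Nova1 chr12:46694517-46818929 on the minus strand and Nova2 chr7:18925888-18965319 on the plus strand. Rbfox2 occupies chr15:77078990-77307004 and Ptbp2 chr3:119718742-119784466, both on the minus strand. RefSeq promoter windows (build GRCm38.p6) matched 9 of the 10 genes, with none for Rbfox2. The bases before the start are shown for Elavl4, Nova1 and Nova2, which were higher in βDKO cells on both scales, and for Ptbp1, which was not, each 5′ to 3′ on the gene's own strand and limited to bases outside annotated exons. Capitals mark the GC box GGGCGG or its complement CCGCCC, the element bound by Sp1-type factors.
Elavl4 (chr4:110351912-110352161, minus strand): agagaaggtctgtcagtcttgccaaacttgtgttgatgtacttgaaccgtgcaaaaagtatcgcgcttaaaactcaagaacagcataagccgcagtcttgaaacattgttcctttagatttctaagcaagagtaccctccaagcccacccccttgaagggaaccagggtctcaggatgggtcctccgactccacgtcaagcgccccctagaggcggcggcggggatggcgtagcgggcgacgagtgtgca
Nova1 (chr12:46818930-46819017, minus strand): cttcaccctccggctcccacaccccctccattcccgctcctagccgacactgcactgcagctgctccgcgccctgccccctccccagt
Nova2 (chr7:18925638-18925887, plus strand): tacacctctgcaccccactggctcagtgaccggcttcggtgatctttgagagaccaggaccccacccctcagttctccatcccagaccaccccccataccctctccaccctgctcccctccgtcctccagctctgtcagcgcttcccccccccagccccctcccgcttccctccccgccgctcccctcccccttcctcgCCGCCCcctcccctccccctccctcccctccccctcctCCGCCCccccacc
Ptbp1 (chr10:79854182-79854426, plus strand): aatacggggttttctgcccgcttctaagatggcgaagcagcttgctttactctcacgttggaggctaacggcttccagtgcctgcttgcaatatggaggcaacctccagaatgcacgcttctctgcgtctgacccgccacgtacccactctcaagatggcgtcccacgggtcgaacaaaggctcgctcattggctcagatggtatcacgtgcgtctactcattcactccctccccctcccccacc
The Nova2 window was 71.2% G or C, held 2 GC boxes, both as CCGCCC, and a run of 9 C, and had 10 CpG. The Nova1 stretch of 88 bases was 70.5% G or C with 5 CpG and no GC box, while its whole 250-base window, part of which is exon, was 50.0% G or C with 11 CpG. Elavl4 (1 of its 4 listed starts, 53.6% G or C, 14 CpG) and Ptbp1 (56.7%, 15 CpG) held no GC box. The Ptbp2 window, not shown, was 72.4% G or C with 6 GC boxes, and Ptbp2 was not higher on both scales. Among 250-base upstream windows of 32841 mouse promoters, 32.7% held a GC box on either strand, and the median G or C content was 52.4% with a median of 6 CpG. These matches describe the letters of the windows only.

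**Figure D1:**
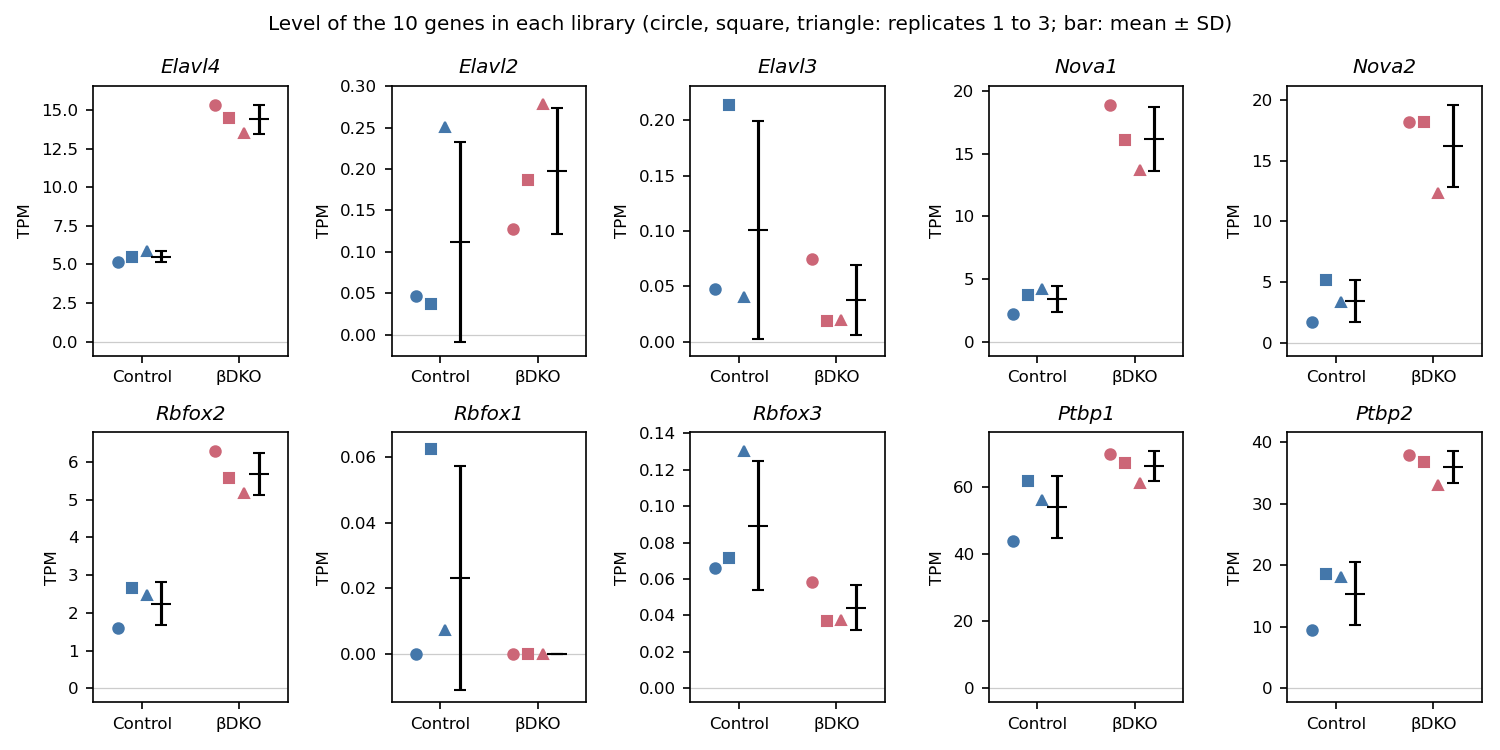
TPM (y axis, a separate linear scale for each gene) of the 10 genes in the 3 control and 3 βDKO libraries; symbols are replicates 1 to 3 and bars are mean ± SD. All βDKO libraries lie above all controls for Elavl4, Nova1, Nova2, Rbfox2 and Ptbp2, whereas Ptbp1 overlaps and Elavl2, Elavl3, Rbfox1 and Rbfox3 stay under 0.3 TPM.

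Of the 10 genes, 6 reached 5 TPM in at least 3 libraries and entered the test. Elavl4, Nova1 and Nova2 rose in βDKO cells, by 2.62-fold to 4.79-fold in mean TPM. In rescaled means they were 1.45-fold, 2.71-fold and 2.72-fold higher, in that order. Rbfox2 passed on TPM and only narrowly after rescaling. Ptbp2 was higher on TPM only, and Ptbp1 was lower after rescaling only. By limma with Benjamini-Hochberg adjustment over all tested genes, 5 of the 6 were higher and 0 lower on TPM, against a background of 81.4% of tested genes called higher and 4.61% called lower. After rescaling, 4 of the 6 were higher and 1 lower, against 23.4% and 21.1% of tested genes, and the same 4 were higher on both scales, against 23.4%. The median log2 change of the 6 was 1.23 on TPM and 0.45 after rescaling. Nova1 and Rbfox2 reached 5 TPM in the βDKO libraries only and so entered the test through the group in which they were high, which means that these counts and medians cannot stand for all 10 genes. With the limit lowered to 1 TPM, which all 6 genes met in every library, 3 were higher after rescaling (Elavl4, Nova1 and Nova2) and Ptbp1 was lower. RNA from these bulk samples cannot tell a change in the kinds of cells sorted from a change in RNA per cell.

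**Figure D2:**
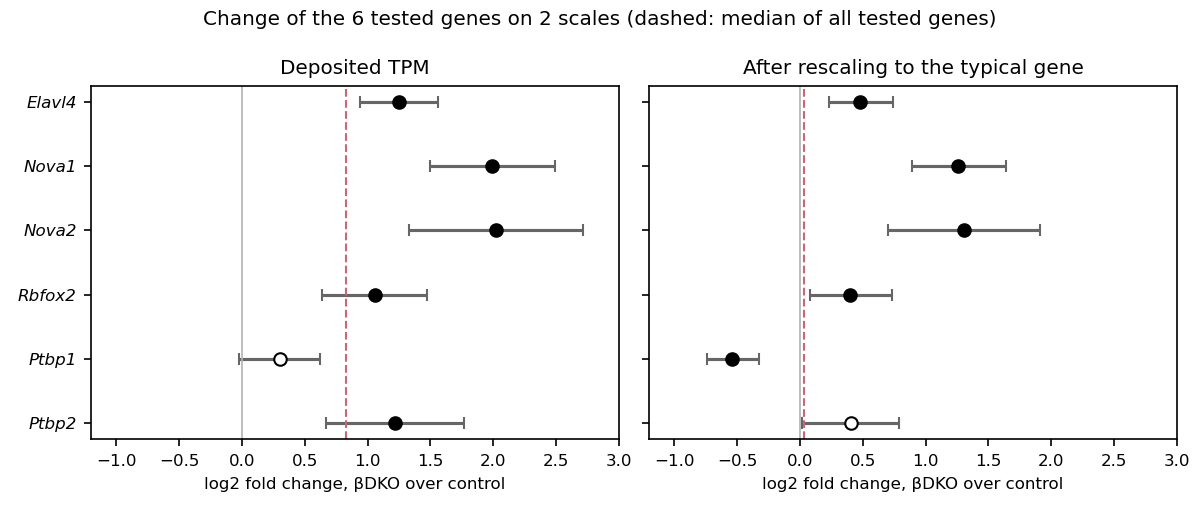
Log2 fold change of the 6 tested genes, βDKO over control, on the deposited TPM (left) and after rescaling (right), from log2(value + 1); bars are 95% confidence intervals, filled points pass an adjusted p of 0.05 and the dashed line is the median of all tested genes. The points of all tested genes but Ptbp1 lie to the right of the median on both scales, Nova1 and Nova2 furthest. On TPM the intervals of Rbfox2 and Ptbp2 include that median. Ptbp1 changes sign between the scales, from 0.30 to −0.54.

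Elavl4 encodes HuD, the neuronal Hu protein that also binds insulin mRNA. Its TPM was 5.16, 5.46 and 5.9 in the controls, against 15.3, 14.5 and 13.5 in the βDKO libraries. The groups did not overlap, as was true with βDKO above for 83.2% of tested genes, and each group was tight, at 5.51 ± 0.374 and 14.4 ± 0.928 TPM (SD, n = 3). The log2 change was 1.25 on TPM (limma, SE 0.13, adjusted p = 9.05e-05) and 0.48 after rescaling (SE 0.11, adjusted p = 0.00925). After rescaling, the call was lost without βDKO 1 (log2 change 0.43 to 0.54 over the 6 left-out libraries, adjusted p = 0.0544 without βDKO 1) and with βDKO 1 and βDKO 2 averaged (adjusted p = 0.05). Behind these values stood 1051 to 1388 reads in the controls and 2206 to 2611 in the βDKO libraries. Elavl1 (HuR), the Hu gene used in all tissues, went from 14.2 ± 3.34 to 25.3 ± 0.473 TPM and was level with the typical gene after rescaling (log2 change 0.01, limma adjusted p = 0.939).

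The other neuronal Hu genes were close to the limit of detection. Elavl2 (HuB) was at 0.0467, 0.0376 and 0.251 TPM in the controls and 0.128, 0.187 and 0.278 TPM in the βDKO libraries, so that the groups overlapped. Elavl3 (HuC) was at 0.0476, 0.214 and 0.0404 TPM against 0.0744, 0.0191 and 0.0194 TPM, again with overlap. Summed over a group, Elavl2 had 76 reads in the controls (exact Poisson 95% interval 59.9 to 95.1) and 95 in the βDKO libraries (76.9 to 116). Elavl3 had 20 (12.2 to 30.9) and 6 (2.2 to 13.1). These intervals cover counting error only. An exact two-sided permutation test of log2(TPM + 1) gave p = 0.3 for Elavl2 and p = 0.5 for Elavl3. With 3 libraries a group the smallest possible p is 0.1, so this test could not have called a difference. Within the family, Elavl4 was thus the 1 neuronal Hu gene above 1 TPM in either group.

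Nova1 and Nova2, KH-domain proteins first known as autoantigens in neurological disease, showed the biggest log2 changes among the 6 tested genes on both scales. Nova1 was at 2.23, 3.71 and 4.23 TPM across the controls and 18.9, 16.1 and 13.7 TPM across the βDKO libraries. Nova2 was at 1.7, 5.16 and 3.37 TPM against 18.2, 18.2 and 12.3 TPM. For both genes the lowest βDKO library lay above the highest control. Mean Nova1 rose from 3.39 ± 1.04 to 16.2 ± 2.57 TPM (SD, n = 3), 4.79-fold, or by 1.99 in log2 TPM (limma, SE 0.21, adjusted p = 9.2e-05) and by 1.26 once rescaled (SE 0.16, adjusted p = 0.000572). Mean Nova2 rose from 3.41 ± 1.73 to 16.2 ± 3.39 TPM, 4.75-fold, or by 2.02 in log2 TPM (SE 0.3, limma adjusted p = 0.000436) and by 1.31 once rescaled (SE 0.26, adjusted p = 0.00505). After rescaling, the change of Nova1 stood at percentile 95.6 and that of Nova2 at percentile 95.9 of all tested genes, and both exceeded 2-fold there. Nova1 entered the tested genes through the βDKO libraries only, so its percentile gives a place among them and is no further evidence of a rise. Of all tested genes, 6.62% were higher on both scales and at least 2-fold higher after rescaling. Both calls held under each of 15 alternatives on the rescaled scale, where the log2 change ran from 1.13 to 1.44 for Nova1 and from 1.05 to 1.56 for Nova2. Nova2 was the more variable gene among controls, from 238 reads in control 1 to 523 in control 2. In Nova2, 2652 exon bases are shared with the opposite-strand gene Gm26821, so reads there cannot be told apart where strand was not used in counting. In Nova1, 310 exon bases are shared with Gm33869 on the same strand, where strand does not separate the genes.

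Among the Rbfox genes, Rbfox2, the member used outside the nervous system as well, carried nearly all of the signal. It was at 1.59, 2.67 and 2.46 TPM in the controls and 6.28, 5.58 and 5.17 TPM in the βDKO libraries. The groups did not overlap, and means were 2.24 ± 0.571 and 5.68 ± 0.56 TPM (SD, n = 3), 2.54-fold apart. The log2 change was 1.06 on TPM (limma, SE 0.18, adjusted p = 0.000828). After rescaling it was 0.40 (SE 0.14, 95% interval 0.08 to 0.73, adjusted p = 0.0491), and this call failed under 12 of 15 alternatives, with adjusted p up to 0.189. It failed without control 1 (0.0844), control 3 (0.0695), βDKO 1 (0.189), βDKO 2 (0.147) or βDKO 3 (0.0645), so the change of Rbfox2 relative to the typical gene is uncertain. The gene stood just inside the limit of the test, with its lowest βDKO library at 5.17 TPM.

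Rbfox3 encodes NeuN, the nuclear antigen used to stain mature neurons. It was at 0.0661, 0.0715 and 0.13 TPM in the controls and 0.0584, 0.0369 and 0.0374 TPM in the βDKO libraries. All βDKO libraries lay below all controls, opposite to Rbfox2, with 81 reads in the controls (exact Poisson 95% interval 64.3 to 101) and 29 in the βDKO libraries (19.4 to 41.6). Such a position, with βDKO below, was taken by 4.82% of the tested genes. Rbfox3 was too low to be among these, and the share among genes at its level was not taken. An exact permutation test (two-sided) returned p = 0.1, the lowest it can return, and 0.4 after adjustment over the 4 genes tested this way. Rbfox1, a brain, heart and muscle gene, was listed at 0, 0.0624 and 0.0073 TPM in the controls and at 0 in all βDKO libraries. These were 8 reads in the controls (exact Poisson 95% interval 3.45 to 15.8), 7 of them in control 2, against 0 reads, which allows up to 0.0315 TPM in a βDKO library at 3 reads (exact two-sided permutation p = 0.4). No fold is given, because 2 of the controls were also at or under that floor.

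Ptbp1, the broadly used repressor of neuronal exons, was at 43.9, 61.9 and 56.4 TPM in the controls and 70.1, 67.2 and 61.4 TPM in the βDKO libraries. The groups overlapped, since βDKO 3 lay below control 2, and means were 54.1 ± 9.22 and 66.3 ± 4.46 TPM (SD, n = 3). The log2 change on TPM was 0.30 (limma, SE 0.14, 95% interval −0.02 to 0.62, adjusted p = 0.0739), below the median gene, and without control 2 it passed (0.40, limma adjusted p = 0.0335). After rescaling Ptbp1 was lower, at 71.5 ± 4.45 against 49 ± 2.64 rescaled units, with a log2 change of −0.54 (SE 0.09, limma adjusted p = 0.00185), and this held under each of 15 alternatives (−0.57 to −0.49). On recovered reads divided by library total, without size factors, the log2 change was −0.09 (limma-voom, adjusted p = 0.479), so the direction for Ptbp1 is set by the scaling. Opposite-strand genes share 437 (Gm17134), 295 (E130317F20Rik) and 251 (Plppr3) exon bases with Ptbp1, so reads there cannot be told apart where strand was not used. E130317F20Rik was at 4.34 to 5.54 TPM in the controls and 7.77 to 10.01 TPM in the βDKO libraries, and Plppr3 at most at 0.676 TPM.

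Ptbp2, the neuronal paralog, was at 9.53, 18.6 and 18.1 TPM in the controls and 37.9, 36.7 and 33 TPM in the βDKO libraries. Every βDKO library lay above every control, and means were 15.4 ± 5.11 and 35.9 ± 2.55 TPM (SD, n = 3), 2.33-fold apart. The log2 change was 1.22 on TPM (limma, SE 0.24, adjusted p = 0.0017). After rescaling it was 0.41 (SE 0.17, 95% interval 0.02 to 0.79, adjusted p = 0.08) and passed under 0 of 15 alternatives (adjusted p from 0.0598 to 0.193). Ptbp2 is thus higher on TPM, and a rise relative to the typical gene was not shown.

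**Figure D3:**
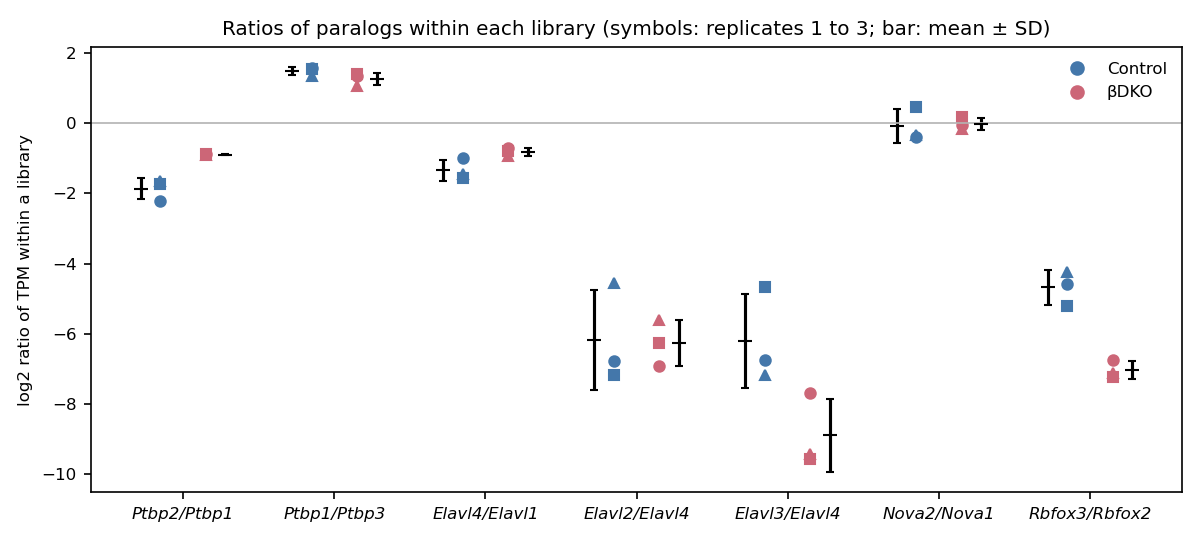
Log2 ratio of TPM between paralogs within each library (y axis) for the 7 ratios without a 0, control and βDKO; symbols are replicates and bars are mean ± SD. Ptbp2/Ptbp1 and Elavl4/Elavl1 lie higher in all βDKO libraries, Elavl3/Elavl4 and Rbfox3/Rbfox2 lower, and the other ratios overlap.

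A ratio of paralogs within a library is the same on both scales. Its level, unlike its change between groups, also depends on the gene lengths used for TPM. Ptbp2 over Ptbp1, which rises during neuronal differentiation, was 0.217, 0.301 and 0.321 in the controls and 0.541, 0.545 and 0.538 in the βDKO libraries. The βDKO ratios were higher and nearly equal, and the mean log2 ratio moved from −1.86 ± 0.3 to −0.89 ± 0.01 (SD, n = 3), 1.96-fold. By exact permutation (two-sided) p was 0.1, the floor for 3 against 3 libraries, and 0.175 after adjustment over 7 ratios, so none of the 7 could pass 0.05. Without control 1, the lowest control, the log2 difference was 0.80. Ptbp1 over Ptbp3, a paralog first described in blood-forming cells, overlapped between groups at 2.56 to 2.98 and 2.09 to 2.63 (log2 difference −0.22, exact permutation p = 0.2). Ptbp3 itself was higher on TPM (log2 change 0.50, limma adjusted p = 0.0234, lost without βDKO 1 at 0.0631 or βDKO 3 at 0.0757 and, with limma-voom, at a log2 change of 0.13 and adjusted p = 0.41) and lower after rescaling (−0.31, adjusted p = 0.0438, lost without control 2, control 3, βDKO 1 or βDKO 2 at 0.104 to 0.17).

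Elavl4 over Elavl1 was 0.499, 0.339 and 0.365 in the controls and 0.615, 0.575 and 0.521 in the βDKO libraries, without overlap, a 1.44-fold higher mean ratio (exact permutation p = 0.1, adjusted 0.175). Nova2 over Nova1 stayed near 1, at 0.762, 1.39 and 0.798 in the controls and 0.962, 1.13 and 0.896 in the βDKO libraries (log2 difference 0.07, exact permutation p = 0.9). Rbfox3 over Rbfox2 was 0.0415, 0.0268 and 0.0529 against 0.0093, 0.0066 and 0.00723, a ratio 5.1-fold lower in βDKO cells (exact permutation p = 0.1, adjusted 0.175). Elavl3 over Elavl4 was 6.46-fold lower and Elavl2 over Elavl4 overlapped, each resting on few Elavl3 or Elavl2 reads. With 1 added to each TPM, the log2 difference for Elavl3 over Elavl4 was −1.33 in place of −2.69, and that for Elavl2 over Elavl4 was −1.14 in place of −0.09.

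In order of TPM, which is per length, the controls ran from Ptbp1 (54.1) through Ptbp2 (15.4) and Elavl4 (5.51) to Nova2 (3.41), Nova1 (3.39) and Rbfox2 (2.24), with the remaining 4 below 0.3 TPM in every library. Ptbp1, Ptbp2 and Elavl4 did not overlap in the controls, while Nova1, Nova2 and Rbfox2 overlapped each other and the highest Nova2 library met the lowest Elavl4 library at 5.16 TPM. In the βDKO libraries Ptbp1 (66.3) and Ptbp2 (35.9) were again first, followed by Nova1 (16.2), Nova2 (16.2) and Elavl4 (14.4), which overlapped, and by Rbfox2 (5.68), which lay below them. The order between genes is uncertain. In control 1, Rbfox2 had 1545 recovered reads at 1.59 TPM and Ptbp2 536 at 9.53 TPM, with 8140 and 9175 annotated exon bases. Whether the lengths used differ from this annotation or the recovered reads carry a multiplier was not tested. Either would cancel when groups are compared for 1 gene. By rank among all 24421 rows, Nova1 stood at percentiles 57 to 60.1 in the controls and 67.6 to 71.2 in the βDKO libraries, and Nova2 at 55 to 62 and 66.2 to 71.2. Ptbp1 stood at 91.6 to 93 and then 88.5 to 89.8, the 1 gene of the 6 tested whose rank was lower in every βDKO library. The gene-level table holds no exon or junction values, so splicing itself is not measured here.

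Other splicing regulators expressed in brain or islets were compared from a list of 28, of which 18 were tested. On both scales 6 were higher and 1 was lower, against 23.4% and 4.61% of all tested genes, and the median log2 change was 0.98 in TPM and 0.14 once rescaled, against 0.83 and 0.03 for all tested genes. Celf6, a Celf-family RNA-binding protein, rose from 10.9 ± 3.2 to 37.6 ± 0.924 TPM (3.44-fold, rescaled log2 change 0.92, limma adjusted p = 0.00223). Celf1 rose 3.21-fold (0.83, adjusted p = 0.00588) and Celf4, which reached 5 TPM in the βDKO libraries only, rose 3.02-fold (0.65, adjusted p = 0.00453). Esrp2, an epithelial splicing regulator, fell 2.88-fold, from 9.05 ± 0.899 to 3.14 ± 1.05 TPM (log2 change −1.31 on TPM, limma adjusted p = 0.000698, and adjusted p = 0.000138 after rescaling). Srrm3, a microexon regulator of neurons and islets, was at 15.6 ± 5.06 and 34.1 ± 1.52 TPM and passed on TPM (log2 change 1.13, limma adjusted p = 0.00188) but not after rescaling (0.31, limma adjusted p = 0.14, and 0.037 without control 2). Srrm4, its neuronal relative, was at 2.83, 1.96 and 4.92 TPM against 5.73, 5.39 and 3.05 TPM, overlapped and was not tested.

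The general splicing factors are given by their counts, to be read against the background of 23.4% higher and 4.61% lower on both scales. Of 13 SR proteins, all tested, 2 were higher on both scales (Srsf9, 2.37-fold, and Srsf12, 3.97-fold) and none was lower on both, with a rescaled median of −0.10. Their rescaled log2 changes were smaller, at 0.39 for Srsf9 and 0.91 for Srsf12. Srsf12 reached 5 TPM in the βDKO libraries only. Of 23 hnRNP proteins, all tested, 1 was higher on both scales (Hnrnph3, 2.54-fold, rescaled log2 change 0.52) and none was lower, with a rescaled median of 0.01. Of 16 binders of mRNA stability and translation, 14 were tested, with a rescaled median of 0.26. On both scales 2 were higher, Fxr2 (2.44-fold, rescaled log2 change 0.45) and Cpeb2 (2.7-fold, 0.55). Of the 14, 2 entered the test through the βDKO libraries only, Cpeb2 and Cpeb3. After rescaling, the call of Srsf12 was lost without βDKO 1 or βDKO 2 (limma adjusted p = 0.0589 and 0.0616) and that of Hnrnph3 without βDKO 1 (0.0526). That of Cpeb2 was lost without control 1, control 3 or any βDKO library (limma adjusted p from 0.0508 to 0.122). Rest, the repressor of neuronal genes whose absence is usual in β cells and neurons, was at 0.123 ± 0.0998 and 0.0819 ± 0.091 TPM, overlapped and was not tested. Of 12 genes of the Rest corepressor complex, 11 were tested and 3 were higher on both scales, a share near the background of 23.4%. These were Rcor2 (4.87-fold, rescaled log2 change 1.39, limma adjusted p = 0.0166), the histone methyltransferase Ehmt2 (2.4-fold, 0.42, limma adjusted p = 0.0102) and the scaffold Sin3a (2.45-fold, 0.45, limma adjusted p = 0.0407). After rescaling, all 3 failed without βDKO 1 or βDKO 2, with limma adjusted p up to 0.067 for Rcor2, 0.0554 for Ehmt2 and 0.134 for Sin3a, and Sin3a also failed without control 1 (0.0624), control 2 (0.0825) or βDKO 3 (0.0589).

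Among 16 pan-neuronal genes, 12 were tested, 8 were higher on both scales and 1 was lower, against 23.4% and 4.61% of all tested genes, and the median log2 change was 1.70 in TPM and 0.89 once rescaled. Uchl1, a deubiquitinase abundant in neurons, rose 5.97-fold, the microtubule protein gene Mapt 5.58-fold and the SNARE gene Snap25 5.06-fold in mean TPM, with rescaled log2 changes of 1.70, 1.45 and 1.53, whereas the neuronal tubulin Tubb3 fell from 39.9 ± 8.02 to 22.8 ± 1.41 TPM. Mapt reached 5 TPM in the βDKO libraries only. Of 8 peripheral neuron markers, 7 were below 1 TPM in every library, and Phox2a, Dbh and Slc18a3 were among those at 0 throughout. The summed level of that list was 25.8 to 42.3 TPM in the controls and 1.83 to 2.06 TPM in the βDKO libraries, carried by Th. Schwann cell markers summed to 9.16 to 12 and 12.2 to 15.5 TPM, with Gfap at 0 in all libraries. Endothelial markers summed to 5.9 to 9.24 against 23.8 to 28.7 TPM, carried by Esam (7.46 ± 1.69 and 26.2 ± 2.41 TPM), while Pecam1, Cdh5, Kdr and Flt1 stayed below 1 TPM in every library and had lower means in the βDKO libraries. Immune markers were lower in sum, at 115 to 199 against 7.94 to 13.6 TPM, carried by C1qa (131 ± 41.6 and 5.79 ± 1.66 TPM). Fcer1g and Cd79a were also lower on both scales. Cd68 overlapped (3.45 ± 1.85 and 3.75 ± 2.31 TPM), and Ptprc stayed below 1 TPM in every library. The labelled cell type could be read in the controls from β cell markers at 469000 to 536000 TPM in sum, which were at 68200 to 96600 TPM in the βDKO libraries, with 8 of the 10 markers lower on both scales and the other 2, Pdx1 and Nkx6-1, higher on TPM and lower after rescaling. Acinar markers were at 10.3 to 334 and 10.1 to 81 TPM, and duct markers at 246 to 354 and 196 to 203 TPM. Krt7 carried the duct sum. Krt19 was lower in the βDKO libraries (1.37 ± 0.808 and 0.115 ± 0.104 TPM), Cftr was higher (2.67 ± 1.39 and 5.11 ± 0.987 TPM) and Sox9 overlapped. Fibroblast markers were at 0.217 to 1.31 and 0.0571 to 0.761 TPM, and α, δ and PP cell markers at 5300 to 12100 and 2610 to 3570 TPM. The part of endothelial, Schwann or any other cells in the changes of Elavl4, Nova1, Nova2 and Rbfox2 was not tested.

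**Figure D4:**
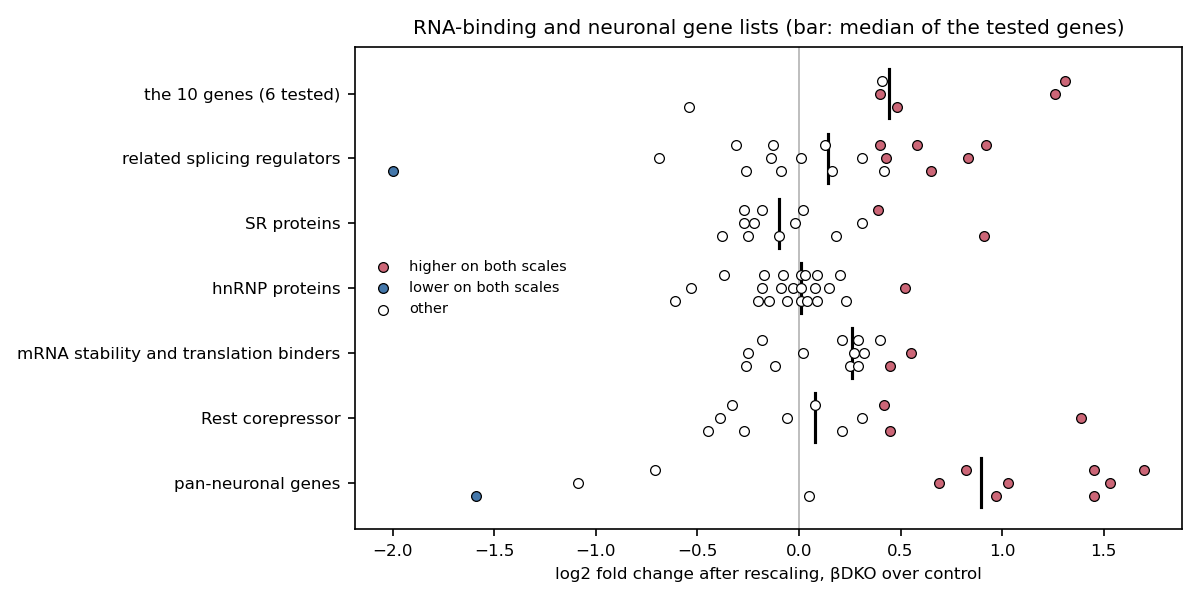
Log2 fold change after rescaling (x axis), βDKO over control, for each tested gene of the 10 and of 6 further lists; red and blue points passed one way on both scales, open points did not, and bars are list medians. Medians are 0.89 for the pan-neuronal list, 0.45 for the 6 tested splicing regulators, −0.10 for SR proteins and 0.01 for hnRNP proteins. At least 1 tested gene of each list, and Nova1 and Rbfox2 among the 6, reached 5 TPM in the βDKO libraries only. The medians therefore describe the tested genes and do not rank the lists.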

How the data were processed

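Gene-level TPM of 3 control and 3 βDKO libraries of sorted islet β cells were deposited as 1 table, per the file headers, and each column adds up to 1000000. The submitters' processing notes name the tools Trimmomatic, FastQC, HTSeq, HISAT2 and DESeq2 with mm10 as build, while tool roles, strand use and annotation were not given in the sources used here. Genes reaching 5 TPM in 3 or more libraries were tested as log2(TPM + 1) with limma 3.58.1 in R 4.3.3 (trend, robust, two-sided, group as the single factor, Benjamini-Hochberg at 0.05), on the deposited TPM and after division by median-of-ratios size factors from all rows above 0 in every library. Fold changes on the log2(value + 1) scale understate changes of low genes; folds given without a log are ratios of mean TPM. The lowest factor was 0.643 (control 1) and the highest 1.38 (βDKO 1). The test was also run on simulated counts. Their spread between libraries was fixed in advance and not fitted to these libraries, so that run does not give error rates for them.

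Whole reads were recovered from the TPM steps: among rows detected in 2 or more libraries, 16625 of 16625 (100%) gave whole reads within 1e-05 of a read, apart from any multiplier that all libraries of a gene share. Recovered reads entered limma-voom as an alternative and the intervals of low genes. By replicate number, totals were 31282056, 25388872 and 30869916 for the controls and 28890594, 27410193 and 27198939 for the βDKO libraries. Paralog ratios and low genes used exact permutation tests, which cannot go below 0.1. βDKO 1 and βDKO 2 were the most alike pair but differed by more than sampling noise (chi-square per degree of freedom 4.86, against 24.1 to 89.5 for other pairs of a group) and were counted as 2 libraries.

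The 10 genes and all lists were chosen with earlier results of these data known. All 10 genes are described, Elavl1, Ptbp3, Srrm3, Srrm4 and Rest are always named, and from each further list up to 4 genes are named that pass on both scales, by largest rescaled change.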

Additional observations from a re-analysis of the deposited data

How the results depend on the processing

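For the 6 tested genes on both scales, 152 of 168 values under the alternatives kept direction and side of the threshold, 14 lost the call, 1 gained it and 1 reversed; for 19 other named genes the numbers were 488 of 532, 39, 1 and 4. The reversals, none of them past the threshold on either side, were Ptbp1 on TPM (0.30), at −0.09 with limma-voom, and rescaled Elavl1 (0.01), at −0.02 with the total without hormone transcripts, −0.01 with size factors from the tested genes, and −0.09 to 0.06 with each library left out. The count of the 6 genes higher after rescaling was 4, and it was 2 to 4 with each library left out in turn (2 without βDKO 1) and 2 with βDKO 1 and βDKO 2 averaged. Of all genes, 480 were lower on TPM; this was 757 with a limit of 1 TPM, 1098 with no limit and 864 with limma-voom on recovered reads. The log2 ratio of Elavl2 over Elavl4 (−0.09) was 0.09 with βDKO 1 and βDKO 2 averaged and −0.59 to 0.72 with each library left out, and that of Nova2 over Nova1 (0.07) was −0.09 to 0.34. With a pseudocount of 1, Elavl3 over Elavl4 was −1.33 (from −2.69), Rbfox3 over Rbfox2 −1.12 (from −2.35) and Elavl2 over Elavl4 −1.14 (from −0.09). The causes of these shifts were not tested.

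Replicate numbers did not pair the libraries: same-numbered deviations correlated at −0.08, −0.02 and 0.2, and libraries 1 and 2 correlated best with the other number. With the replicate block, 2228 genes were higher and 2026 lower after rescaling, against 2432 and 2195, and Rbfox2 lost its call (limma adjusted p = 0.0997), as did Sin3a (0.0569) and Ptbp3 (0.0652). Size factors from the tested genes only, an alternative chosen after seeing the data, gave 2282 and 2341. Depth limits Elavl2, Elavl3, Rbfox1 and Rbfox3, which had at most 57 reads in a library.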
